A study of Mus musculus with 21 samples.

Results

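MYC and the proteins that share its partner MAX form a small network of transcription factors, and RNA-seq values of its members were examined in Ba/F3 cells treated with 2 JAK2 inhibitors. The members were taken as a fixed list of 10 genes: Myc and Mycn, Max, the antagonists Mxd1, Mxd3, Mxd4, Mxi1 and Mnt, and the more distant relatives Mga and Mlx. All 10 were held by each of the 4 deposited tables, among 9973 genes common to the 4. Of 3 remaining network genes, Mlxip was held by every table, and Mycl and Mlxipl were not analysed here. Ba/F3 is a mouse pro-B cell line that needs interleukin-3, and every library came from Ba/F3 cells carrying JAK2-V617F, a human JAK2 with an activating mutation that was introduced with a retroviral vector. Cells transformed in this way grow without the cytokine, and the mutant kinase was present in all groups, the controls included.

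The 21 libraries fell into 7 groups of 3. DMSO-treated, ruxolitinib-treated (Ruxo_treated) and CHZ868-treated (CHZ_treated) cells received solvent or 1 μM inhibitor for 6 h. Ruxo-wash and CHZ868-wash (CHZ_wash) cells received 1 μM inhibitor for 1 h, were rinsed with PBS and were cultured for 6 h with no inhibitor, and each had a DMSO-wash group of its own, named DMSO_wash and DMSO_wash_exp3 in the labels. Ruxolitinib is a type I inhibitor of JAK1 and JAK2, which binds the active kinase, and CHZ868 is a type II inhibitor, which binds the inactive kinase. The labels do not say whether replicates were separate cultures, so the spread between them may be technical.

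MYC and MYCN bind DNA only as heterodimers with MAX, at the E-box CACGTG, and activate genes for ribosome production, nucleotide synthesis and cell growth. MXD1, MXD3, MXD4, MXI1 and MNT compete for MAX and for the same sites, and recruit the SIN3 and histone deacetylase corepressors. MGA pairs with MAX within a Polycomb complex, and MLX pairs with MLXIP or MLXIPL and with some of the antagonists, linking the network to glucose sensing. In haematopoietic cells, cytokine receptors that signal through JAK2 and STAT5 are known inducers of Myc.

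The members lie on several chromosomes of the mouse genome (positions from GENCODE, build GRCm38). Myc is at chr15:61985391-61990374 on the forward strand, and Mxi1 is at chr19:53310518-53375810 on the forward strand. Mxd4 is at chr5:34173883-34187720 and Max is at chr12:76937269-76962201, both on the reverse strand. Values refer to whole genes and all their exons, so isoforms were not separated. Neither Myc nor Mnt overlaps another annotated gene. Mlx overlaps Psmc3ip on the other strand and shares 17.11% of its distinct 31-base stretches with other genes, so its counts are uncertain, and the share was 5.87% or less for the other members.

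The RefSeq promoter windows (GRCm38.p6, 250 bases before to 50 bases after the start of the gene) held 9 of the 10 members with 11 promoters; Myc had no entry. An E-box CACGTG, which reads the same on both strands, was found in the window of 4 members, Max, Mxd4, Mnt and Mlx. The same letters were found in 7.15% of all 32851 windows, and in at least 1 window of 11.93% of 8450 genes of the table of CHZ868-treated cells. The GAS motif TTCNNNGAA, the core of STAT binding sites, was found in the windows of 0 of the 9 members and in 8.3% of all windows. The stretches around the 4 E-boxes are shown because the E-box is the site at which these factors bind, 5′ to 3′ on the strand of the gene and with the E-box in capitals. A match of letters is a description and does not show binding.
Max, chr12:76962246-76962281, reverse strand, first base of the E-box 3 bases before the start: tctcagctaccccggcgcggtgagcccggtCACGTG
Mxd4, chr5:34187894-34187959, reverse strand, 219 bases before the start: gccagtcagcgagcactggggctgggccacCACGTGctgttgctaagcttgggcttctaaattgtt
Mnt, chr11:74830771-74830836, forward strand, 123 bases before the start: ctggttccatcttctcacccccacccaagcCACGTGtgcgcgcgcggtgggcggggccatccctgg
Mlx, chr11:101087220-101087285, forward strand, 40 bases before the start: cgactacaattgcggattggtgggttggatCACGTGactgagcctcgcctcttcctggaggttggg

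Values are log2 CPM, reads of a gene scaled to a common library total with a small constant added, and a difference of 1 is a doubling. In 3 tables the low values correspond to whole reads and give 7880000 to 10670000 reads per library on the listed genes. No whole reads could be recovered for ruxo-wash and its DMSO-wash group, whose depth is therefore not known. Ruxolitinib-treated replicate 2 stood apart, differing from replicates 1 and 3 by 31.3 and 28.5 times the sampling variance of the counts, compared with 4.39 between those 2. Replicate 3 of DMSO_wash_exp3 also stood apart, at 23.7 and 38.5 times that variance, against 5.73 between the other two. In the remaining groups with known depth the factor was 2.17 to 14.4. Of 9 pro-B cell markers, the tables held Cd79a and Cd79b, while others, among them Vpreb1, Igll1, Ebf1, Pax5, Rag1 and Il7r, were listed in none; the 3 genes of the interleukin-3 receptor and Ptprc were held, and no marker of T cells or mast cells was. In bulk RNA, fewer cells with a transcript and less transcript per cell cannot be told apart.

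Myc had the highest mean level per length of transcript in every group, and Max the second highest, although their libraries overlapped in ruxolitinib-treated cells. In DMSO-treated cells, Myc stood at 7.40 ± 0.08 log2 CPM per kb and Max at 5.87 ± 0.09 (mean ± SD, n = 3), followed by Mxi1 at 4.73 ± 0.06, the highest of the antagonists. Mycn followed at 4.35 ± 0.03, Mga at 4.07 ± 0.04 and Mxd3 at 3.91 ± 0.06, and each of these neighbours was separated from the next in every library. Mlx at 3.51 ± 0.09 and Mxd4 at 3.43 ± 0.03 overlapped, as did Mnt at 3.15 ± 0.07 and Mxd1 at 3.07 ± 0.13, the 2 lowest. In ruxolitinib-treated cells Mxd4 stood higher in this order, above Mxd3, Mga, Mlx, Mxd1 and Mnt, at 4.43 ± 0.23 log2 CPM per kb, and overlapped with its neighbours Mycn and Mxd3.

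Ruxolitinib for 6 h was accompanied by a lower level of Myc and higher levels of the antagonists Mxd4, Mxi1, Mxd3 and Mxd1. Because the ruxolitinib-treated libraries were normalized in a table of their own, the median of each library over the 11624 genes common to both tables was subtracted, and the differences are described with no test. The 3 libraries of one group lay entirely above or below the 3 of the other for 7 of the 10 members, beside 44.6% of all genes, with 6 members higher and 1 lower. None of the 10 members also differed by at least 1 log2 unit, beside 3.12% of all genes. The median difference was 0.14 over the members and 0.04 over all genes.

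Myc stood at 7.24, 8.29 and 7.50 log2 CPM in ruxolitinib-treated replicates 1 to 3, and at 8.54, 8.65 and 8.68 in the DMSO-treated cells. All 3 treated libraries were lower, and replicate 2, one of the libraries that stood apart, was much closer to the controls than the others were. After centring, Myc was lower by a mean of 0.97 (log2 difference -0.97, SD 0.56 among treated and 0.08 among control libraries). The difference was -1.29 without replicate 2. Mycn, the paralogue with the same partner, differed by 0.10, with DMSO-treated libraries from 5.74 to 5.80 log2 CPM and ruxolitinib-treated libraries from 5.82 to 6.05. Its groups overlapped after quantile normalization or scaling of recovered reads, while Myc, Mxd1, Mxd3, Mxd4, Mxi1 and Mlx kept their direction.

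Mxd4 had the largest increase among the members. It stood at 6.81, 6.38 and 6.73 log2 CPM in the ruxolitinib-treated libraries against 5.61, 5.67 and 5.64 in the DMSO-treated libraries, with a wide gap between the groups. The centred difference was 0.98 (SD 0.21 and 0.03), and 1.10 without replicate 2. Mxi1, which recruits SIN3 as the MXD proteins do, stood at 7.66, 7.97 and 7.84 against a range of 7.0 to 7.13, a centred difference of 0.73 (SD 0.17 and 0.07). Mxd3 was higher by 0.48 and Mxd1 by 0.27, and neither overlapped with its controls. Mlx was higher by 0.18, with the reservation about its shared sequence.

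The obligate partner Max overlapped between the groups, with a difference of -0.04 and treated libraries from 6.59 to 7.08 log2 CPM around the controls at 6.77 to 6.93. Mnt, the antagonist that is usually expressed throughout the cell cycle, also overlapped (difference 0.10), and so did Mga (-0.13). Without ruxolitinib-treated replicate 2, Max (-0.19) and Mga (-0.23) were lower with no overlap, and 9 members were apart in all. With 2 treated libraries, more genes are apart by construction, 6654 in place of 5190.

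**Figure D1:**
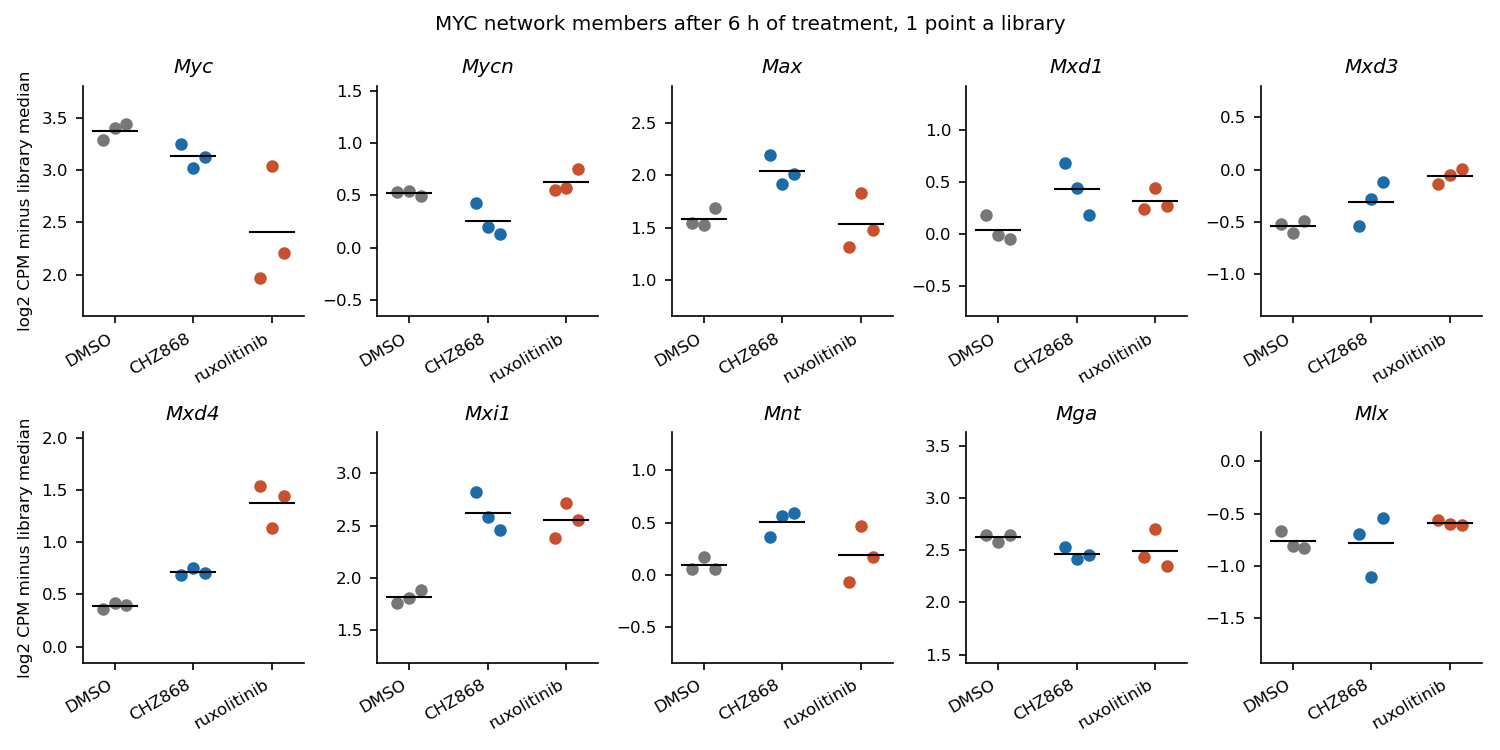
Each panel plots 1 member in the 9 libraries of the 6 h experiment as log2 CPM minus the median of the library over 11624 shared genes (y axis, all panels spanning the same range), for DMSO-treated, CHZ868-treated and ruxolitinib-treated cells (x axis); points are libraries and lines are group means. Myc was lowest in 2 of the 3 ruxolitinib-treated libraries, Mxd4 was highest in all 3, and Mxi1 was above the controls with both inhibitors.

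With CHZ868 for 6 h, Myc was a little lower, and 4 of the 5 antagonists rose together with Max. Of the 10 members, 8 passed the test, 5 higher and 3 lower (limma-trend, Benjamini-Hochberg over all genes, adjusted p under 0.05), beside 53.2% of all genes. The median log2 fold change was 0.25 over the members and -0.01 over all genes. CHZ868-treated and ruxolitinib-treated cells were compared with the same 3 DMSO-treated libraries, so the 2 comparisons are not independent.

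Mxi1 had the largest change. It stood at 8.04, 7.81 and 7.67 log2 CPM in CHZ868-treated cells and at 7.0, 7.06 and 7.13 in DMSO-treated cells, so the groups were well apart. The log2 fold change was 0.77 (SE 0.08, adjusted p = 1.77e-06). Max stood at 7.42, 7.14 and 7.23 against 6.79, 6.77 and 6.93, with no overlap, and rose by 0.43 (SE 0.08, adjusted p = 0.000303). Mnt stood at 5.58, 5.79 and 5.81 against 5.31, 5.43 and 5.30 and rose by 0.38 (SE 0.10, adjusted p = 0.00412). Mxd1 rose by 0.36 (SE 0.12, adjusted p = 0.0207) and Mxd4 by 0.29 (SE 0.08, adjusted p = 0.00779). The CHZ868-treated libraries of Mxd4 spanned only 5.90 to 5.98 log2 CPM, all above the controls, whereas Mxd1 reached from 5.40 to 5.90 and overlapped with controls at 5.20 to 5.43.

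The 3 members that fell did so by small amounts. Myc stood at 8.47, 8.25 and 8.34 log2 CPM after CHZ868, each below the 3 DMSO-treated values, and fell by 0.27 on the log2 scale (SE 0.07, adjusted p = 0.00272). Mycn stood at 5.65, 5.43 and 5.35 against 5.78, 5.80 and 5.74 and fell by 0.30 (SE 0.10, adjusted p = 0.0183). Mga stood at 7.74, 7.64 and 7.67 against 7.89, 7.83 and 7.89 and fell by 0.19 (SE 0.06, adjusted p = 0.0133). Neither overlapped with its controls. Mxd3, an antagonist linked to proliferating cells, had a log2 fold change of 0.20 (adjusted p = 0.201), and Mlx had one of -0.04 (adjusted p = 0.826). Mlxip, the MLX partner, had one of -0.11 (adjusted p = 0.194). Without the mean-variance trend of limma, Mxd1 (adjusted p = 0.0741, range over alternatives 0.000944 to 0.0888) and Mga (adjusted p = 0.0631, range 0.000471 to 0.0631) missed the threshold. Leaving out single libraries gave 6 to 8 members past it, and Mycn missed it in at least 1 case (highest adjusted p = 0.0683).

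Set side by side at the same dose and time, the libraries of the 2 inhibitors lay apart for Mxd4, Mycn and Max. These were 3 of the 10 members after centring, beside 35.3% of all genes, and 0 of the 10 differed by at least 1 log2 unit as well, beside 1.49%. These groups are also in separate tables, so no test was run, and this comparison was chosen after the data were seen. Mxd4 was 0.66 higher with ruxolitinib (SD 0.21 and 0.03) and Mycn 0.37 higher (SD 0.12 and 0.15). Max was 0.50 lower with ruxolitinib (SD 0.26 and 0.14). Myc was 0.73 lower with ruxolitinib on average, but replicate 2 at 3.04 on the centred scale reached into the CHZ868-treated range of 3.02 to 3.25. Without that replicate Myc was lower by 1.04 and did not overlap. Mxi1 differed by -0.07 and its libraries overlapped.

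The balance of Myc against its antagonists does not depend on how a library was scaled, because both parts of the ratio come from the same library. CPM per kb of Myc was divided by the sum over Mxd1, Mxd3, Mxd4, Mxi1 and Mnt. The ratio was 2.42 ± 0.11 in DMSO-treated cells, with libraries from 2.30 to 2.49. It was 1.42 ± 0.09 after CHZ868, from 1.31 to 1.47, and 0.84 ± 0.31 after ruxolitinib (mean ± SD, n = 3). The ruxolitinib-treated libraries stood at 0.63, 1.20 and 0.70, and the 3 groups did not overlap. On this scale the antagonist transcripts together exceeded Myc in replicates 1 and 3. Whether their sum exceeds Myc in a library depends on the division by the longest transcript, and isoforms were not separated. On the log2 scale the ratio differed from DMSO by -1.58 with ruxolitinib and by -0.78 with CHZ868. Over other ways to form the ratio, without division by length or without any 1 antagonist, these values lay from -1.64 to -1.50 and from -0.84 to -0.57, the last of these without Mxi1. Mxi1 made up 46.2% ± 4.1 of the antagonist sum after CHZ868. Mxd4 made up 13.4% ± 0.7 there, and 23.69%, 16.19% and 20.73% in the ruxolitinib-treated libraries. With 3 against 3 libraries an exact permutation test cannot go below 0.10, so no p-value is given.

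**Figure D2:**
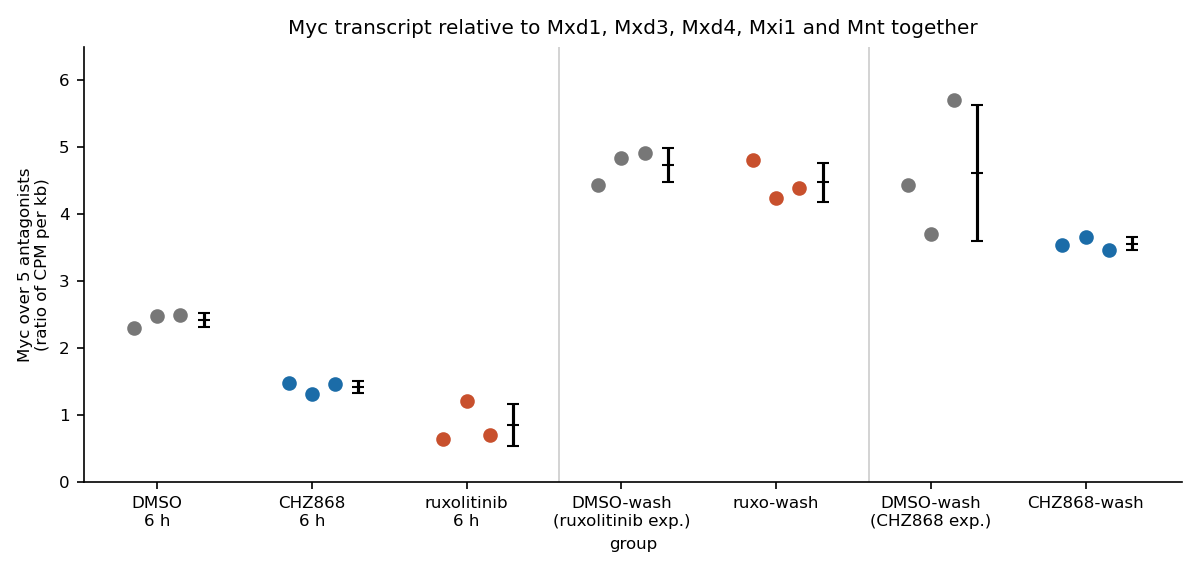
The ratio of Myc to the summed antagonists Mxd1, Mxd3, Mxd4, Mxi1 and Mnt, in CPM per kb (y axis, from 0), is plotted for the 7 groups (x axis), with 1 point per library and the mean and SD beside them; vertical lines separate the 3 experiments. At 6 h the ratio was 2.42 with DMSO, 1.42 with CHZ868 and 0.84 with ruxolitinib. After washout, the ruxo-wash libraries overlapped with their DMSO-wash group, and all 3 CHZ868-wash libraries lay below theirs.

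After ruxolitinib had been washed out, no member passed the test in ruxo-wash against DMSO-wash cells (limma-trend, 0 of 10, beside 0.0229% of all genes, 3 genes in all; 1 member had an unadjusted p under 0.05). Myc stood at 8.56, 8.55 and 8.52 log2 CPM in ruxo-wash and at 8.49, 8.61 and 8.60 in DMSO-wash cells, and the groups overlapped. The log2 fold change was -0.02 with a 95% interval from -0.11 to 0.07. Mxi1 had a log2 fold change of 0.10 (interval -0.02 to 0.21) and Mxd4 one of -0.02 (interval -0.19 to 0.14). Mxd1 was the lowest member here, at 2.15 to 2.50 log2 CPM over both groups, with an interval from -0.43 to 0.45.

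Mycn was the member with the unadjusted p under 0.05. It stood at 6.49, 6.45 and 6.52 log2 CPM in ruxo-wash against 6.15, 6.26 and 6.22 in DMSO-wash cells, with no overlap. Its log2 fold change was 0.28 (SE 0.05, adjusted p = 0.293 by limma), which did not pass. Mlxip, outside the 10 members, stood at 5.04, 5.13 and 4.96 against 5.42, 5.43 and 5.33, a log2 fold change of -0.35 (adjusted p = 0.362 by limma). The ratio of Myc to the antagonists was 4.48 ± 0.29 in ruxo-wash and 4.73 ± 0.25 in DMSO-wash cells (n = 3), with overlapping libraries. Ruxo-wash cells had a DMSO-wash group of their own, and this ratio was not compared with that of another experiment.

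After CHZ868 had been washed out, no member passed the test either (0 of 10 in CHZ868-wash against DMSO-wash cells by limma-trend, beside 4.02% of all genes), although 3 had an unadjusted p under 0.05. Mnt had a log2 fold change of -0.57 (SE 0.16, adjusted p = 0.0642), Myc one of -0.53 (SE 0.16, adjusted p = 0.0780) and Mga one of 0.23 (SE 0.08, adjusted p = 0.131). Myc stood at 8.89, 8.86 and 8.90 log2 CPM in CHZ868-wash cells against 9.31, 9.08 and 9.86 in DMSO-wash cells. All 3 were lower, and the highest control was replicate 3, which stood apart over all genes. Mnt showed the same arrangement, at 5.33, 5.12 and 5.23 against 5.58, 5.62 and 6.20, while Mxd4 was lowest in that control, at 4.46 against 4.85 and 5.07.

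The calls of this comparison depended on single control libraries. When replicate 3 of DMSO_wash_exp3 was left out, Myc had a smaller log2 fold change of -0.31 that passed (adjusted p = 0.0129), Mnt one of -0.37 (adjusted p = 0.0307) and Mga one of 0.28 (adjusted p = 0.0150), 3 members in all and 1426 genes in place of 457. Without replicate 2 of the same group, Myc at -0.70 and Mnt at -0.66 passed, with 1298 genes in all. Leaving out any of the other 4 libraries left no member and at most 1 gene. Over all alternatives the adjusted p lay from 0.0104 to 0.228 for Myc, from 0.0267 to 0.221 for Mnt and from 0.0150 to 0.345 for Mga. With the replicate number as a block, Myc (adjusted p = 0.0424) and Mnt (adjusted p = 0.0419) passed. The ratio of Myc to the antagonists was 3.56 ± 0.10 in CHZ868-wash cells, from 3.47 to 3.66, and 4.61 ± 1.02 in DMSO-wash cells, from 3.70 to 5.71. These groups did not overlap, and no test was run. On the log2 scale the ratio differed by -0.35, and by -0.50 to -0.19 on leaving out single libraries.

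The effects of the 2 washouts were then compared directly (ruxolitinib effect minus CHZ868 effect, all 12 washout libraries in 1 limma-trend fit). No member passed, 0 of 10 beside 1.9% of all genes, and 4 had an unadjusted p under 0.05. The difference was 0.51 for Myc (interval 0.09 to 0.93, adjusted p = 0.171), 0.32 for Mycn (interval 0.10 to 0.54, adjusted p = 0.111), 0.24 for Mxi1 (interval 0.05 to 0.43, adjusted p = 0.165) and -0.36 for Mga (interval -0.61 to -0.12, adjusted p = 0.108). These intervals are not adjusted and do not show that the 2 washouts act alike. When replicate 3 of DMSO_wash_exp3 was left out, Mga passed at -0.42 (adjusted p = 0.0434, range over alternatives 0.0434 to 0.206) and Myc stood at 0.29 (adjusted p = 0.0684). Without replicate 2 of that group 1 member passed, Myc at 0.68 (adjusted p = 0.0262, range 0.0262 to 0.284).

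The response to CHZ868 present for 6 h differed from the response after its washout for 5 of the 10 members. This share was near the 47.1% of all genes that passed (effect at 6 h minus effect after washout, limma-trend over 12 libraries). Mnt differed by 0.96 (SE 0.19, adjusted p = 0.000766), Mxi1 by 0.92 (SE 0.12, adjusted p = 1.70e-05), Max by 0.59 (SE 0.13, adjusted p = 0.00172) and Mxd1 by 0.54 (SE 0.17, adjusted p = 0.0152), all higher with the inhibitor present. Mga differed the other way, by -0.42 (SE 0.10, adjusted p = 0.00255). For Myc the difference was 0.26 with an interval from -0.13 to 0.66 (adjusted p = 0.262), and 0.04 (adjusted p = 0.763, range 0.0271 to 0.763) without replicate 3 of DMSO_wash_exp3. Exposure time, washing and table differ together between the 2 experiments and cannot be told apart. The 5 members also passed without replicate 3 of DMSO_wash_exp3, at 0.75 for Mnt, 0.90 for Mxi1, 0.50 for Max, 0.53 for Mxd1 and -0.47 for Mga.

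**Figure D3:**
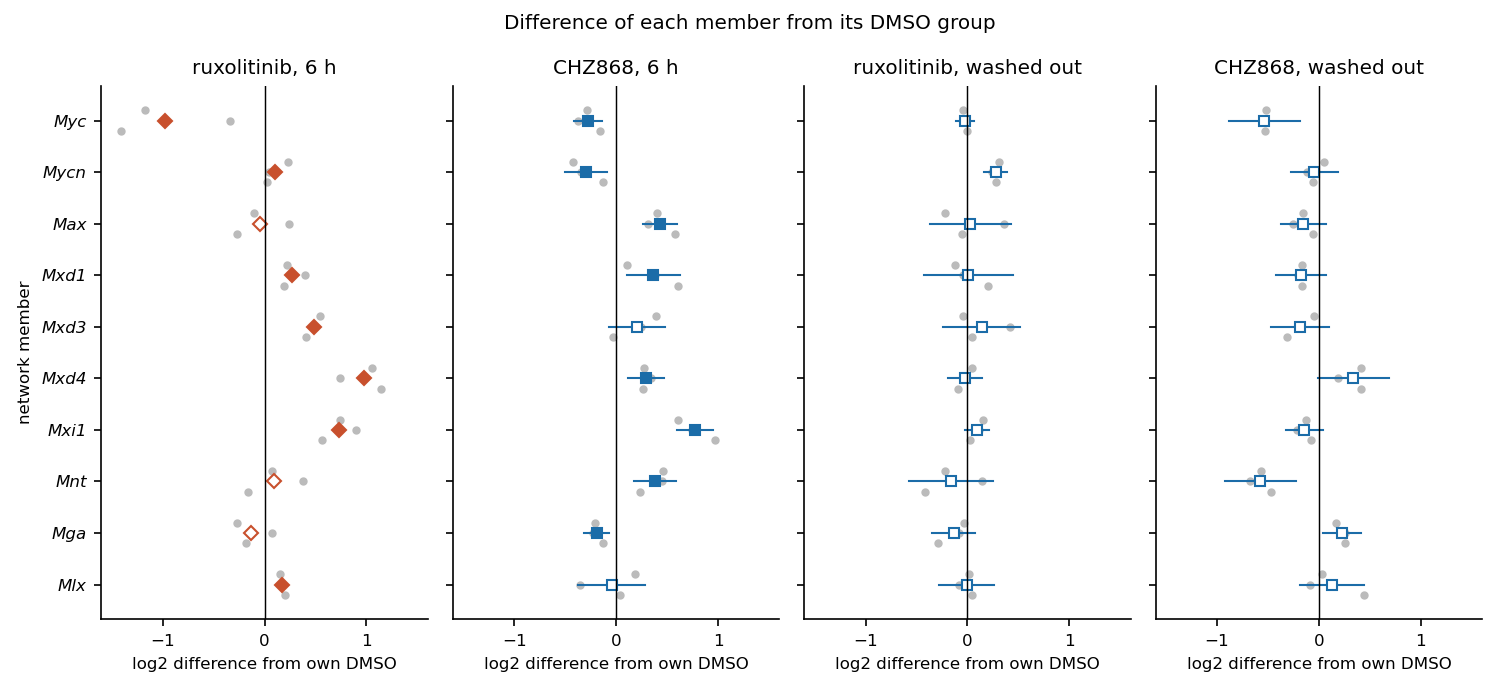
The log2 difference of each of the 10 members (y axis) from its own DMSO group (x axis) is plotted for ruxolitinib and CHZ868 at 6 h and after washout. Grey points are single inhibitor libraries minus the DMSO mean; squares with bars are limma fold changes with unadjusted 95% intervals, filled where the adjusted p was under 0.05, and diamonds are median-centred mean differences with no test, filled where the groups did not overlap. The filled symbols are all in the 6 h panels, 7 for ruxolitinib and 8 for CHZ868, and Mxi1 lies to the right of 0 in both.

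Pvt1, the long non-coding RNA gene downstream of Myc on chromosome 15, was lower with both inhibitors. It fell by 1.07 on the log2 scale with CHZ868 (SE 0.15, adjusted p = 3.46e-05), from 5.54, 5.22 and 5.10 log2 CPM in DMSO-treated cells to 4.11, 4.52 and 4.03. With ruxolitinib it stood at 4.64, 4.77 and 4.88, a centred difference of -0.55 with no overlap. Pvt1 was 0.50 higher with ruxolitinib than with CHZ868 with no overlap, whereas Myc was lower with ruxolitinib in replicates 1 and 3. The effect of CHZ868 on Pvt1 differed by -1.43 between 6 h and washout (SE 0.21, adjusted p = 4.31e-05). Pvt1 overlaps other annotated genes and shares 5.81% of its stretches.

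Most of the genes that MYC is known to activate were lower at 6 h with both inhibitors. Of 20 such genes, 12 fell and 5 rose with CHZ868, while 26.4% of all genes fell and 26.8% rose. The median log2 fold change was -0.42, beside -0.01 over all genes. Polr1b, a subunit of RNA polymerase I, fell by 1.50 (SE 0.10, adjusted p = 1.43e-08), Ccnd2, a D-type cyclin, fell by 1.18 (SE 0.06, adjusted p = 3.61e-10), and Cad, an enzyme of pyrimidine synthesis, fell by 0.94 (SE 0.08, adjusted p = 1.45e-07). Members of the list that rose were led by Eif4e at 0.57, Odc1, the first enzyme of polyamine synthesis, at 0.38 and Cdk4 at 0.34. With ruxolitinib, 13 of the 20 were lower and 0 higher with no overlap, while 20.1% of all genes were lower and 24.6% higher in this way. The median was -0.52, beside 0.04 over all genes. The lowest were Gnl3, a nucleolar protein (-1.28), the spermidine synthase Srm (-1.15) and Polr1b (-1.14). Without ruxolitinib-treated replicate 2, 16 were lower and 2 higher, beside 25.7% and 31.6% of all genes.

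Of 4 genes that MYC is known to repress, 3 rose with CHZ868 and 3 were higher with ruxolitinib, beside the 26.8% and 24.6% of all genes given above. Ndrg1, a differentiation-associated gene, rose by 0.66 with CHZ868 (SE 0.07, adjusted p = 2.11e-06) and was 0.77 higher with ruxolitinib. Cdkn1b, the cell cycle inhibitor p27, rose by 0.47 (SE 0.07, adjusted p = 4.87e-05) and was 0.46 higher. Cdkn1a rose by 0.36 with CHZ868, and Gadd45a was 0.13 higher with ruxolitinib. Txnip, the classical target of MLX with its partners, rose by 0.33 with CHZ868 (adjusted p = 0.000191), while ruxolitinib-treated libraries lay below the controls, by 0.10 (difference -0.10, no test). Txnip shares 17.37% of its 31-base stretches with other genes, mostly with Gm15441 on the other strand, so its counts are uncertain.

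Among cofactors, the corepressors of the MXD proteins and MNT were higher with CHZ868, where 9 of 10 rose and 0 fell, beside 26.8% and 26.4% of all genes (median 0.41 beside -0.01 over all genes). Sin3a, the scaffold of the complex, rose by 0.65 (SE 0.07, adjusted p = 1.47e-06), Arid4a by 0.61 and Sap30 by 0.54. With ruxolitinib 4 of the 10 were higher and 0 lower, beside 24.6% and 20.1% of all genes (median 0.08), and 6 were higher without replicate 2, beside 31.6%. The highest were Sin3a at 0.45, Ncor1 at 0.41 and Sin3b at 0.38. Of 14 coactivators of MYC, 3 rose and 2 fell with CHZ868, a smaller share than the 53.2% of all genes that passed. Kat5 rose by 0.55 and Bptf by 0.32, while Wdr5 fell by 0.37 and Trrap fell by 0.21. With ruxolitinib 5 were higher, beside 24.6% of all genes, among them Trrap at 0.38 and Bptf at 0.37.

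Of 10 Polycomb partners of MGA and MAX, 4 rose and 2 fell with CHZ868, a share near the 53.2% of all genes. Rybp rose by 0.67, Rnf2 by 0.57 and Tfdp2 by 0.35, while Pcgf6 fell by 0.54 and L3mbtl2 fell by 0.37. With ruxolitinib 2 were higher and 1 lower, a smaller share than the 44.6% of all genes that were apart. These were Tfdp2 (0.38), Rybp (0.29) and Pcgf6 (-0.59). Of 12 genes for turnover of the MYC protein, 6 rose and 3 fell with CHZ868, beside 26.8% and 26.4% of all genes. With ruxolitinib 4 were higher and 2 lower with no overlap, beside 24.6% and 20.1%. Btrc, a ubiquitin ligase subunit, rose by 0.86 with CHZ868, Aurka by 0.76 and the kinase Gsk3a by 0.76. With ruxolitinib the highest were Btrc at 0.63, Aurka at 0.58 and Gsk3b at 0.33. Usp36, a nucleolar deubiquitinase, fell by 1.17 and was lower with ruxolitinib too (difference -0.84), and Fbxw7, the ligase subunit that recognises phosphorylated MYC, fell by 0.45 (SE 0.09, adjusted p = 0.000928) and differed by -0.32 with ruxolitinib.

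**Figure D4:**
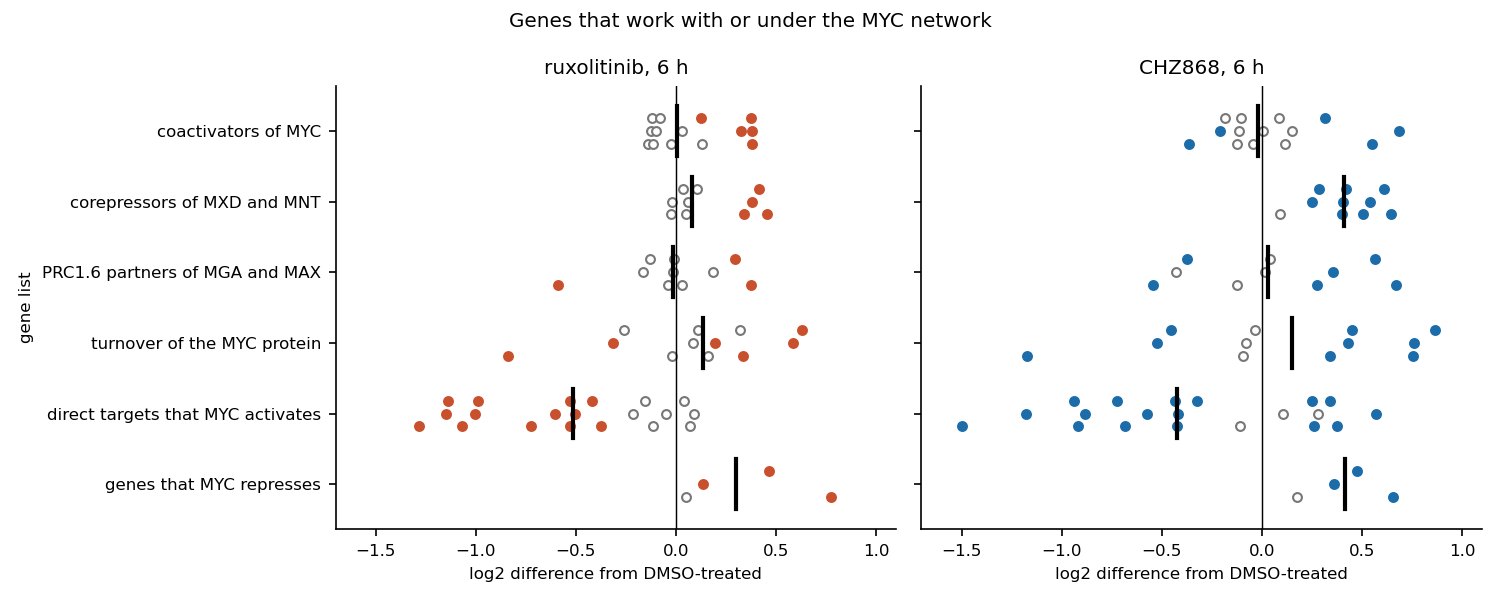
Log2 differences from DMSO-treated cells (x axis) are plotted for the genes of 6 lists (y axis) with ruxolitinib (left) and CHZ868 (right) at 6 h; each point is a gene, filled where the groups did not overlap (ruxolitinib) or the adjusted p was under 0.05 (CHZ868), and the black line is the median of the list. Targets that MYC activates lie mostly left of 0, with medians of -0.52 and -0.42, and the corepressors lie right of 0 with CHZ868.

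Erythroid markers were also higher than in DMSO-treated cells at 6 h with both inhibitors. Klf1 and Epor, the 2 of 3 erythroid markers that were held, had a summed level of 6.14 to 6.27 log2 CPM in DMSO-treated cells, 7.09 to 7.35 after CHZ868 and 7.14 to 7.23 after ruxolitinib. In CHZ868-wash cells their summed level was 5.38 to 5.55, against 5.88 to 6.01 in the DMSO-wash controls. There Klf1 had a log2 fold change of -0.565 (adjusted p = 0.0323 by limma) and Epor one of -0.04 (adjusted p = 0.91). In ruxo-wash cells the sum was 4.65 to 4.95 and overlapped with that of their DMSO-wash group, at 4.63 to 4.80. The pro-B cell markers Cd79a and Cd79b were likewise apart as a sum. Their summed level was 4.87 to 5.09 in DMSO-treated cells, 5.26 to 5.33 after CHZ868 and 5.27 to 5.49 after ruxolitinib. With CHZ868, Cd79a rose by 0.42 (adjusted p = 0.0414 by limma), and Cd79b had a log2 fold change of 0.23 that did not pass (adjusted p = 0.292). The sums of markers were not median-centred. The 3 genes of the interleukin-3 receptor summed to 11.62 to 11.65 in DMSO-treated cells, 11.22 to 11.39 after CHZ868 and 11.41 to 11.67 after ruxolitinib. The macrophage markers Csf1r and Cd68 summed to 3.97 to 4.31 in DMSO-treated cells, 3.68 to 4.27 after CHZ868 and 3.75 to 4.26 after ruxolitinib. Within that sum, Csf1r fell by 1.18 with CHZ868 (SE 0.32, adjusted p = 0.00578) and Cd68 had a log2 fold change of 0.47 (adjusted p = 0.0541). The part of these markers in the results was not tested.

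After washout the lists were mostly flat. In ruxo-wash cells, 0 genes of any list passed (limma-trend, 3 of 13085 genes in all), and the log2 fold changes of the 20 activated targets lay from -0.11 to 0.10. In CHZ868-wash cells, 1 of the 14 coactivators and 3 of the 20 activated targets passed, beside 4.02% of all genes. The acetyltransferase Kat2a fell by 0.41 (adjusted p = 0.0323), Srm fell by 0.36 (adjusted p = 0.0410) and the ribosome biogenesis factor Bop1 fell by 0.36 (adjusted p = 0.0423), while the transferrin receptor Tfrc rose by 0.44 (adjusted p = 0.0356). When replicate 3 of DMSO_wash_exp3 was left out, 2 targets rose and 4 fell, beside 6.68% and 5.87% of all genes. Without any 1 CHZ868-wash library, or without replicate 1 of DMSO_wash_exp3, at most 1 gene of the whole table passed. Without the mean-variance trend 0 genes passed, so these list calls depended on the setting. The 2 washout effects differed in Srm (0.46, adjusted p = 0.0225), Kat2a (0.42, adjusted p = 0.0371) and Tfrc (-0.45, adjusted p = 0.0371).

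Over the 12 inhibitor libraries, each expressed as a difference from its DMSO mean, the genes of the 9973 whose pattern was most like that of Myc were Ddx10 (r = 0.96), Sp100 (0.92), Ccnc (0.91), Twsg1 (0.90) and Tuba8 (0.89). Those most like Mxi1, the member with the largest fold change under CHZ868, were Cux1 (0.98), Rab11b (0.98), Dap (0.98), Cpt2 (0.98) and Tcn2 (0.98). Among the members, Mxd4 ran opposite to Myc (r = -0.90), and Mxi1 ran with Mxd1 (0.90) and Mnt (0.86). These Pearson correlations are descriptions over 12 points that share treatment groups and, at 6 h, control libraries. They compare each gene with its own mean over the 12 libraries, so a high r does not mean the same direction from DMSO. With CHZ868 at 6 h, Ccnc stood at 0.48, 0.36 and 0.38 from the DMSO mean, and Myc at -0.16, -0.38 and -0.29.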

How the data were processed

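RNA-seq was read from 21 libraries in 4 tables of log2 CPM values, deposited by the authors, per the study's methods after TMM normalization and removal of low genes. By the same account, reads were pseudo-aligned with kallisto to GRCm38 and summed per gene; the submitters' processing notes name STAR 2.7.3a, edgeR 4.0.16 and GRCm39 instead, which could change counts of genes with shared sequence. The kit was strand-specific; whether counting used strand is not given in the sources used here.

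Groups and replicate numbers were taken from the labels. Within a table, limma-trend (limma 3.58.1, R 4.3.3) was fitted to the deposited log2 CPM, with p-values adjusted by Benjamini-Hochberg across every gene of the table and a threshold of 0.05; differences between effects used 12 libraries and the shared genes (10078 or 11175). The study used voom, which starts from counts; the trend took its place because the tables hold log2 values. Ruxolitinib-treated libraries were centred on medians and described. Values were computed with Python 3.11.15, and the fits were tested on simulated data. Counting of whole reads used a tolerance of 0.02 reads on values under 8 CPM; depth is unknown for the ruxo-wash table. Transcript length for values per kb was that of the longest GENCODE transcript.

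The members and lists were chosen with earlier results of these data known. Named are all members, the remaining network genes, up to 3 largest rises and falls past the threshold per list, and the 5 genes most like Myc and most like the member with the largest fold change (Mxi1); a few items that this rule covers are not reported here. Alternatives were no trend, a replicate block, median centring, quantile normalization, a mean log2 CPM of at least 1, log2(CPM + 1), an adjusted p of 0.01, recovered reads scaled by medians of ratios (ruxolitinib-treated only), and leaving out each library; the comparison of the 2 inhibitors with each other, the list counts and the other ways to form the ratio were added after seeing the data.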

Additional observations from a re-analysis of the deposited data

Results flagged for a closer look

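Effects of CHZ868 that differed between 6 h of treatment and washout, by the limma test of the difference (6 h effect minus washout effect), were 0.96 for Mnt, 0.92 for Mxi1, 0.59 for Max, 0.54 for Mxd1 and -0.42 for Mga among the members, -1.43 for Pvt1 and 0.28 for Txnip. The share of members, 5 of 10, was near the 47.1% of all genes that passed. Between the 2 washouts (ruxolitinib effect minus CHZ868 effect), the test of the difference passed for Srm at 0.46, Kat2a at 0.42 and Tfrc at -0.45. DMSO-wash replicate 3 of the CHZ868 experiment, which stood apart, enters all of these values.

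At 6 h, the members, the list genes and the markers, 93 genes in all, were examined for opposite positions of the 2 inhibitors. Of these, 7 lay on one side of the DMSO-treated mean in every ruxolitinib-treated library and on the other in every CHZ868-treated library, and this difference was not tested because the groups are in separate tables. The same count was not made over all genes, so it is not known whether 7 of 93 is more than their share. Mycn lay above the mean with ruxolitinib (centred mean 0.10) and below it with CHZ868 (mean -0.27), a difference of 0.37. Mlxip lay at 0.15 and -0.08, a difference of 0.24. The coactivator Trrap lay at 0.38 and -0.18, a difference of 0.56, and the receptor chain Il3ra at 0.25 and -0.22, a difference of 0.47. Below the mean with ruxolitinib and above it with CHZ868 were Eif4e at -0.21 and 0.60, a difference of -0.81, Txnip at -0.10 and 0.36, a difference of -0.46, and Actl6a at -0.12 and 0.11, a difference of -0.23. A position beside the mean is not a separation from the control libraries. With ruxolitinib, Eif4e and Actl6a overlapped with their controls, and with CHZ868, Mlxip and Actl6a did not pass the limma test.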

How the results depend on the processing

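Of 990 values of single members under an alternative, 943 counted as the same. In tested comparisons this meant the same direction and side of the threshold. In the comparisons of ruxolitinib-treated cells, which had no test, it meant a shift of at most the larger SD of the groups. Leaving out a single library cannot shift a group mean by that much. Such values of these comparisons therefore counted as the same by construction and are no check, as for Myc at -1.29 in place of -0.97. In these comparisons, members whose groups overlapped could change sign, and overlap itself could change. The replicate block left 8 members called with CHZ868, raised the CHZ868-wash count from 0 to 2 members (Myc and Mnt), and gave 0 genes for ruxo-wash, 539 for CHZ868-wash and 6 for the difference between washouts, against 3, 457 and 191. Libraries with equal numbers did not deviate together (correlations from -0.065 to 0.087). With 3 libraries in each group, this does not show that they were unpaired. Without the trend the counts were 9, 0 and 14 genes, and at an adjusted p of 0.01 they were 0, 0 and 4, with 5 members for CHZ868-treated cells in place of 8. Leaving out each library gave 0 to 1 genes for ruxo-wash, 0 to 3 members and 0 to 1426 genes for CHZ868-wash, and 0 to 1 members and 5 to 628 genes for the difference between washouts. The high ends came without DMSO-wash replicate 3 or 2 of the CHZ868 experiment.

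Members apart by at least 1 log2 unit with ruxolitinib were 1 with no centring, quantile normalization or recovered reads and 0 to 2 on leaving out libraries, against 0. For ruxolitinib against CHZ868, leaving out libraries gave 3 to 6 members apart and 0 to 1 past 1 log2 unit, 4633 to 6671 genes apart and 145 to 403 past 1 log2 unit, and log2(CPM + 1) gave 100 genes past it in place of 173.

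Sign changes came only in members that had not passed or, where no test was run, whose groups overlapped. Mlx turned to 0.060 with quantile normalization (CHZ868-treated) and to 0.0017 with median centring (ruxo-wash). On leaving out libraries Mlx ranged from -0.16 to 0.11 (CHZ868-treated), -0.12 to 0.080 (ruxo-wash), -0.030 to 0.23 (CHZ868-wash) and -0.25 to 0.023 (difference between washouts), and in ruxo-wash Max from -0.14 to 0.16, Mxd1 from -0.087 to 0.11, Mxd3 from -0.0016 to 0.23 and Mxd4 from -0.058 to 0.012. Mxd4 ranged from -0.18 to 0.12 for 6 h against washout. For ruxolitinib-treated against DMSO-treated cells, Max ranged from -0.19 to 0.069 and Mnt from -0.044 to 0.23. For ruxolitinib against CHZ868 at 6 h, Mxd1 ranged from -0.25 to 0.0011, Mxi1 from -0.15 to 0.035 and Mga from -0.068 to 0.10. The causes were not tested. The unknown depth of the ruxo-wash table and 3 libraries a group limit all counts.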
